A study of Mus musculus with 6 samples.

Results

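The genes described here carry symbols of Golgi glycosyltransferase and mannosidase families, whose enzymes remodel sugar chains on proteins and lipids as they pass through the Golgi. They were chosen by symbol, as the rows of the count table named Mgat, Man1a, Man1c, Man2a, B4galt, B3galt, B3gnt, St3gal, St6gal, St8sia, Galnt or Fut with a number (Man1a and Man2a may also end there), and by a minimum of 60 counts summed over the 6 libraries. Of the 23225 gene symbols in the table, 69 matched and 60 reached the minimum. The lowest gene inside was St8sia3 with 61 counts, and the highest outside was B4galt2 with 42. The other 8 below the minimum were B3gnt4, B3gnt6, Fut1, Fut4-ps1, Fut9, Galnt5, Mgat5b and St6gal2, with 3 to 39 counts each. All 60 members passed the filter on low counts of the test. Membership by symbol does not show that each encoded enzyme acts in the Golgi.

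RNA was sequenced from tumour-associated dendritic cells that had been sorted from C57BL/6 mice with tumours of the murine ovarian carcinoma line ID8, a model that fills the abdomen with tumour ascites, at day 23. The XBP1-KO group (3 libraries) came from conditional knockout mice whose CD11c-positive cells lack XBP1, and the WT group (3 libraries) from wild-type mice. The deletion is stated for CD11c-positive cells in general, not for dendritic cells alone. The labels say that RNA was isolated independently for each of the 3 samples of a genotype, not that each came from its own animal, so the p-values weigh a difference only against the spread among these libraries, which may be technical.

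Active XBP1 protein appears once IRE1, a sensor of ER stress, has spliced the Xbp1 mRNA, and this factor then promotes expression of secretory pathway genes. N-glycans leave the ER rich in mannose. In the Golgi, class I mannosidases trim them, MGAT1 adds the first N-acetylglucosamine, class II mannosidases trim again, further MGAT enzymes add branches, and galactose, sialic acid and fucose cap the branches. O-glycans are started separately by the GALNT enzymes. On dendritic cells and other leukocytes these caps form ligands of selectins, siglecs and galectins, and polysialic acid made by ST8SIA4 is known from dendritic cell migration.

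The targeted gene was lower in the libraries labelled XBP1-KO. Xbp1 had 889, 916 and 1331 counts in XBP1-KO libraries a, b and c, against 1903, 1376 and 2300 in WT libraries a, b and c, so the groups did not overlap. Its log2 fold change of -0.89 (SE 0.18, adjusted p = 0.0545, edgeR quasi-likelihood) missed the threshold of 0.05. The counts are per gene and may include Xbp1 transcripts without the deleted part, so they do not measure the extent of the XBP1 loss. Total counts were between 27706508 and 31325627 in XBP1-KO libraries and between 26946349 and 32709100 in WT libraries. On the first principal component (33.5% of the variance) the XBP1-KO libraries lay between 15.8 and 37.5. WT a and WT c lay at -32.8 and -59.5. WT b, at 9.6, lay nearer to the XBP1-KO libraries than to the other WT libraries. XBP1-KO b and WT b stood apart from the other 4 on the second principal component (22.2% of the variance), at 30.1 and 38.3, against values between -45 and -1.

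The list of 6 dendritic cell genes was present and mixed in direction, with 2 higher, 4 lower and none called by edgeR in XBP1-KO. Itgax (CD11c) had 146 ± 14.2 CPM (counts scaled to library size and TMM factors) in XBP1-KO and 103 ± 7.95 CPM in WT (SD, n = 3 each), without overlap (adjusted p = 0.106 by edgeR quasi-likelihood and 0.0477 by DESeq2). Zbtb46, a transcription factor of conventional dendritic cells, lay lower without overlap, at 7.39 ± 0.680 CPM in XBP1-KO and 8.66 ± 0.225 CPM in WT. Ciita, the activator of MHC class II genes, did too, at 136 ± 6.33 CPM in XBP1-KO and 189 ± 26.0 CPM in WT. Flt3, H2-Ab1 and Cd74 overlapped, and the list summed to 59300 to 85030 CPM in XBP1-KO and 63950 to 104900 CPM in WT, most of it Cd74.

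Among genes of other cell types, 5 were called higher and 1 lower in XBP1-KO by edgeR, beside 0.157% and 0.288% of all genes tested. The macrophage gene called lower was Mrc1, the mannose receptor, at 330 ± 58.9 CPM in XBP1-KO and 560 ± 30.8 CPM in WT (SD, n = 3 each, adjusted p = 0.0455, edgeR quasi-likelihood). Over the 5 macrophage genes the sums were 2180 to 2775 CPM in XBP1-KO and 2620 to 2795 CPM in WT. All 5 T cell genes lay higher, Cd3e and Lck called, and summed to 114 to 136 CPM in XBP1-KO and 53.0 to 81.9 CPM in WT. All 5 NK cell genes lay higher, Ncr1 and Nkg7 called, and summed to 128 to 231 CPM in XBP1-KO and 80.4 to 108 CPM in WT. All 4 B cell and all 3 neutrophil genes lay higher with no call by edgeR, the B cell genes summing to 335 to 486 CPM in XBP1-KO and 130 to 312 CPM in WT and the neutrophil genes to 154 to 213 CPM in XBP1-KO and 41.7 to 114 CPM in WT. Of the neutrophil genes, S100a8 and S100a9 lay higher without overlap. Csf3r overlapped, at 36.4 ± 13.9 CPM in XBP1-KO and 34.3 ± 8.90 CPM in WT (SD, n = 3 each). None of the 3 mast cell genes overlapped. Cpa3, a mast cell protease, was called higher, with 19.1, 17.3 and 30.6 CPM in XBP1-KO libraries and 9.96, 9.24 and 9.85 CPM in WT libraries (adjusted p = 0.0440, edgeR quasi-likelihood). Mcpt4 lay higher and Kit lower, so the summed mast cell level overlapped, at 77.7 to 104 CPM in XBP1-KO and 81.7 to 151 CPM in WT. The 5 genes of tumour epithelium summed to 72.8 to 127 CPM in XBP1-KO and 83.5 to 118 CPM in WT. With library size alone Nkg7 was the only one of these 6 calls that passed, and none passed without XBP1-KO a, without WT a or without WT c. None of these marker genes was at 0 in any library. Among the other cell types DESeq2 called Cd3d, Cd3g, Prf1, Cd79a and Cd79b higher and Kit lower in addition. For Cd79a and Cd79b its adjusted p-values were 0.00290 and 0.0399. Without WT a, edgeR called the neutrophil gene S100a8 higher (adjusted p = 0.0224). The part of these cells in the results below was not tested. In such bulk samples fewer cells of a type and less RNA per cell cannot be told apart.

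Mgat1, which starts the hybrid and complex N-glycans, fell in XBP1-KO and was the only member called, that is, with an adjusted p under 0.05 over all genes tested. No member rose. Of all 15958 genes tested, 0.445% were called, 0.157% of them higher and 0.288% lower as shares of all genes. Of the 60 members, 35 lay lower and 25 higher, against 43.9% of all genes with a fold change below 1. Well-expressed genes lay lower more often in general. At a mean of 5 CPM or more, 28 of 41 members lay lower (68.3%), against 52.3% of all 9709 genes at that level. The median log2 fold change at that level was -0.132 for members and -0.017 for all genes. Over all 60 members the median was -0.07, beside 0.057 over all genes tested. The sign of the members' median depended on the processing, with 0.007 when only library size was used for scaling and 0.018 in the 4 libraries without XBP1-KO b and WT b, where 29 members lay lower.

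At an unadjusted p under 0.05, 9 members were lower and 2 were higher (unadjusted p under 0.05 in 8.26% and 4.59% of all genes tested). At a mean of 5 CPM or more, 19.5% of members were lower and 4.88% higher by this measure, beside 12.6% and 4.16% of all genes at that level. The 9 were Mgat1, Man2a2, St3gal1, St3gal4, St8sia4, Galnt4, Galnt7, Fut7 and Fut10, and the 2 were Man1a and Fut4. Values did not overlap between the genotypes for 9 members that were lower and 7 that were higher in XBP1-KO, beside 10.4% and 8.8% of all genes tested. At a mean of 5 CPM or more these were 19.5% and 7.32% of members, beside 15.1% and 7.22% of all genes at that level. The 9 lower members without overlap were Mgat1, St3gal1, St3gal4, St6gal1, St8sia4, Galnt4, Galnt7, Galnt10 and Fut10. The 7 higher ones were Man1a, Man1c1, Fut4, B3galt5, B3galt6, B3gnt3 and St8sia2, of which the last 4 had a mean under 2 CPM in both groups.

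**Figure D1:**
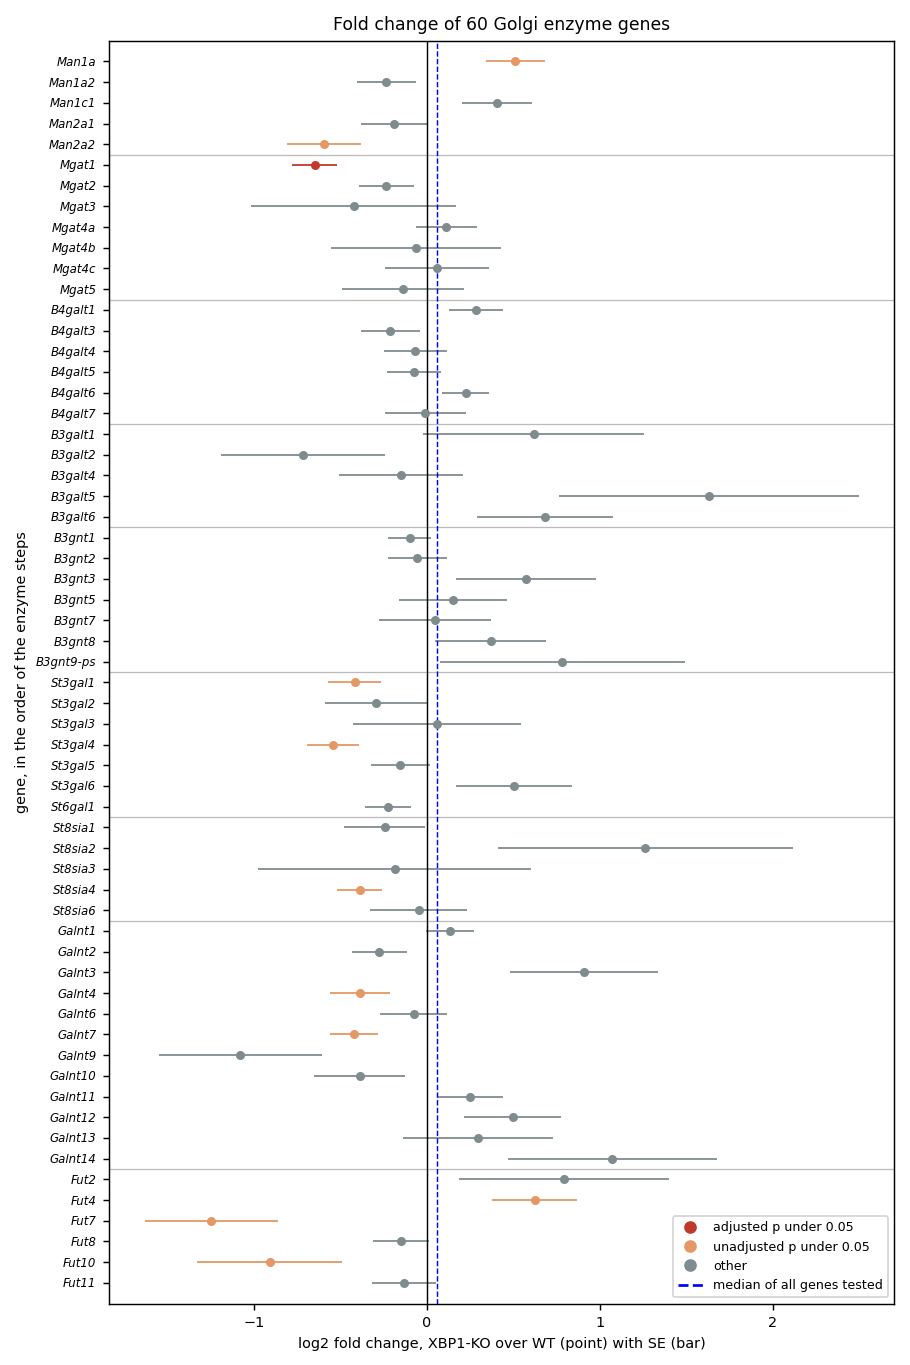
Log2 fold change of XBP1-KO over WT (horizontal axis, points) with its standard error (bars) for each of the 60 genes, in blocks by enzyme family, with the median of all genes tested as a dashed line at 0.057. Mgat1 at -0.65 is the single gene with an adjusted p under 0.05, and Man1a and Fut4 are the 2 genes at an unadjusted p under 0.05 to the right of 0.

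Because Mgat1 was the called member, the 250 bases before each of its 3 start sites in RefSeq (GRCm38.p6, plus strand) are shown, together with those of B3gnt5, the only member whose windows held TGACGTG. Motifs of XBP1 and related factors were searched on either strand, and capitals mark a match. The longest is TGACGTG. A shorter one, ACGTG, is its core and lies within it. The remaining motif is CCACG, part of the ER stress response element. The windows lie at chr11:49243941-49244190, chr11:49247227-49247476 and chr11:49250302-49250551 for Mgat1, in the order given, and at chr16:19759984-19760233 for B3gnt5.
Mgat1 upstream start: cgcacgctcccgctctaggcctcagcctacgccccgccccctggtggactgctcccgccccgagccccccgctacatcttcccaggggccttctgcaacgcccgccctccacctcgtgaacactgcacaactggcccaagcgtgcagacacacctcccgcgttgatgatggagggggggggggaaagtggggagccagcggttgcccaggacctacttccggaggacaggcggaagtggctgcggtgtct
Mgat1 middle start: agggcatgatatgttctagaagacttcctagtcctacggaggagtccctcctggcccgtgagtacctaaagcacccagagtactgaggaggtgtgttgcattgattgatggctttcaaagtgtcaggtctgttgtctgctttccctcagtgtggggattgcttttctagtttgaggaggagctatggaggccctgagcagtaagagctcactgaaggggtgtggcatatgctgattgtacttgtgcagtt
Mgat1 downstream start: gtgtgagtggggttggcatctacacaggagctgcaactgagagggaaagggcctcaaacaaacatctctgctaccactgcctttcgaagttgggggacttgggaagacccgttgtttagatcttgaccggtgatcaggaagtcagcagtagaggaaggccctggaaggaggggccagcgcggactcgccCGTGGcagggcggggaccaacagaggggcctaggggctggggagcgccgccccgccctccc
B3gnt5 start: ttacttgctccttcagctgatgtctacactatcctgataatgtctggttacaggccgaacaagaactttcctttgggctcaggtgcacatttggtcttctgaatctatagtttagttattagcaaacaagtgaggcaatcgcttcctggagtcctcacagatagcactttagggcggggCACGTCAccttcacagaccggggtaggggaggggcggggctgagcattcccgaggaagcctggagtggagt

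The downstream window of Mgat1 held CCACG on the opposite strand, and its other windows held none of the motifs. Windows were given for 45 of the 60 members. TGACGTG was in the windows of 1 of the 45, against 1.85% of 27025 genes, CCACG in those of 20, or 44.4%, against 31.0%, and ACGTG in those of 11, or 24.4%, against 18.5%. A gene was counted when any of its windows held the motif, so genes with more windows had more chances. The number of windows per gene was not matched between members and all genes. Per window, the shares over all 32851 windows were 1.65%, 28.3% and 16.6%, and none was computed for the members. Of the 11 members at an unadjusted p under 0.05, Mgat1 and Fut4 had a window with CCACG, St3gal4, St8sia4, Galnt7, Fut7 and Man1a had windows without any of the motifs, and St3gal1, Man2a2, Galnt4 and Fut10 had no window in the table. These matches are letters in the windows and were tied to no binding. B3gnt5, which makes the first step of lacto-series glycolipids, had 4.46, 6.71 and 10.8 CPM in XBP1-KO libraries a, b and c, against 5.44, 8.03 and 6.35 CPM in WT libraries a, b and c, and the groups overlapped.

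The mannosidases lay on both sides of 0, and none was called. Man1a, a class I mannosidase that trims mannose before MGAT1 acts, had 30.3, 36.0 and 44.4 CPM in XBP1-KO libraries a, b and c, against 28.6, 24.7 and 24.3 CPM in WT libraries a, b and c. No XBP1-KO value reached down to the WT values, the log2 fold change was 0.51 (SE 0.17), and the threshold was missed (adjusted p = 0.213, edgeR quasi-likelihood). Man1c1, another class I mannosidase, had 15.8, 17.3 and 16.5 CPM in XBP1-KO libraries and 14.3, 9.2 and 14.0 CPM in WT libraries, also without overlap (adjusted p = 0.437, edgeR quasi-likelihood). Man1a2, the remaining class I gene, overlapped, with 25.0 ± 4.06 CPM in XBP1-KO and 29.5 ± 3.28 CPM in WT (SD, n = 3 each). Per kilobase of transcript, Man1a made up 48.8% to 54.4% of the summed level of the 3 class I genes in XBP1-KO libraries and 40.4% to 48.2% in WT libraries, and Man1a2 21.1% to 23.5% in XBP1-KO libraries and 31.1% to 34.1% in WT libraries.

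The class II mannosidases act after MGAT1. Man2a2 had 12.2, 14.2 and 20.8 CPM in XBP1-KO libraries a, b and c, against 24.0, 20.2 and 27.3 CPM in WT libraries a, b and c. XBP1-KO c lay above WT b, so the groups overlapped, and the log2 fold change of -0.60 (SE 0.21, adjusted p = 0.250, edgeR quasi-likelihood) did not pass. Man2a1, which carries out the same step, had 16.3, 26.1 and 24.7 CPM in XBP1-KO libraries and 24.8, 24.3 and 27.5 CPM in WT libraries, and only XBP1-KO a lay below all WT values.

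Among the 7 Mgat genes, 5 lay lower and Mgat1 fell. Mgat1 had 2146, 2526 and 2375 counts in XBP1-KO libraries a, b and c, against 3193, 3664 and 3816 in WT libraries a, b and c. As CPM these were 78.5, 85.2 and 72.1 in XBP1-KO libraries and 113, 130 and 127 in WT libraries. The highest XBP1-KO value lay below the lowest WT value. The means were 78.6 ± 6.58 CPM in XBP1-KO and 123 ± 9.19 CPM in WT (SD, n = 3 each), and the log2 fold change was -0.65 (SE 0.13, adjusted p = 0.0494, edgeR quasi-likelihood). The gene was lower in XBP1-KO under all 14 alternatives run, with log2 fold changes between -0.72 and -0.56. The call held in 4 of them. These were DESeq2 (adjusted p = 0.0023) and, in edgeR's test, no filter (0.0133), the CPM filter (0.0464) and XBP1-KO b left out (0.0371). The call ended with any 1 WT library left out (adjusted p = 0.0646 for a, 0.101 for b and 0.263 for c), without XBP1-KO a (0.169) and without XBP1-KO c (0.172), with upper quartile scaling (0.0795), with library size alone (0.164), and in the 4 libraries without XBP1-KO b and WT b (0.0625), all in edgeR's test, and with the deposited CPM in limma (0.124 and 0.131).

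Mgat2, which adds the second N-acetylglucosamine, had 26.1, 31.2 and 36.0 CPM in XBP1-KO libraries a, b and c, against 38.1, 37.2 and 34.6 CPM in WT libraries a, b and c, and XBP1-KO c lay above WT c. Mgat3, which adds the bisecting residue, ranged widely in XBP1-KO, with 0.769, 1.08 and 4.52 CPM, against 3.74, 2.69 and 2.17 CPM in WT. Mgat4a, a branching enzyme, overlapped at 28.1 ± 5.70 CPM in XBP1-KO and 26.0 ± 1.85 CPM in WT (SD, n = 3 each). Mgat5, which makes the branch that galectins bind best, had 1.78 ± 0.241 CPM in XBP1-KO and 1.96 ± 0.134 CPM in WT. Mgat4b and Mgat4c also overlapped, with log2 fold changes of -0.06 and 0.06. Per kilobase of transcript, Mgat1 held 53.6% to 60.5% of the summed level of the 7 genes in XBP1-KO libraries and 63.5% to 68.3% in WT libraries.

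**Figure D2:**
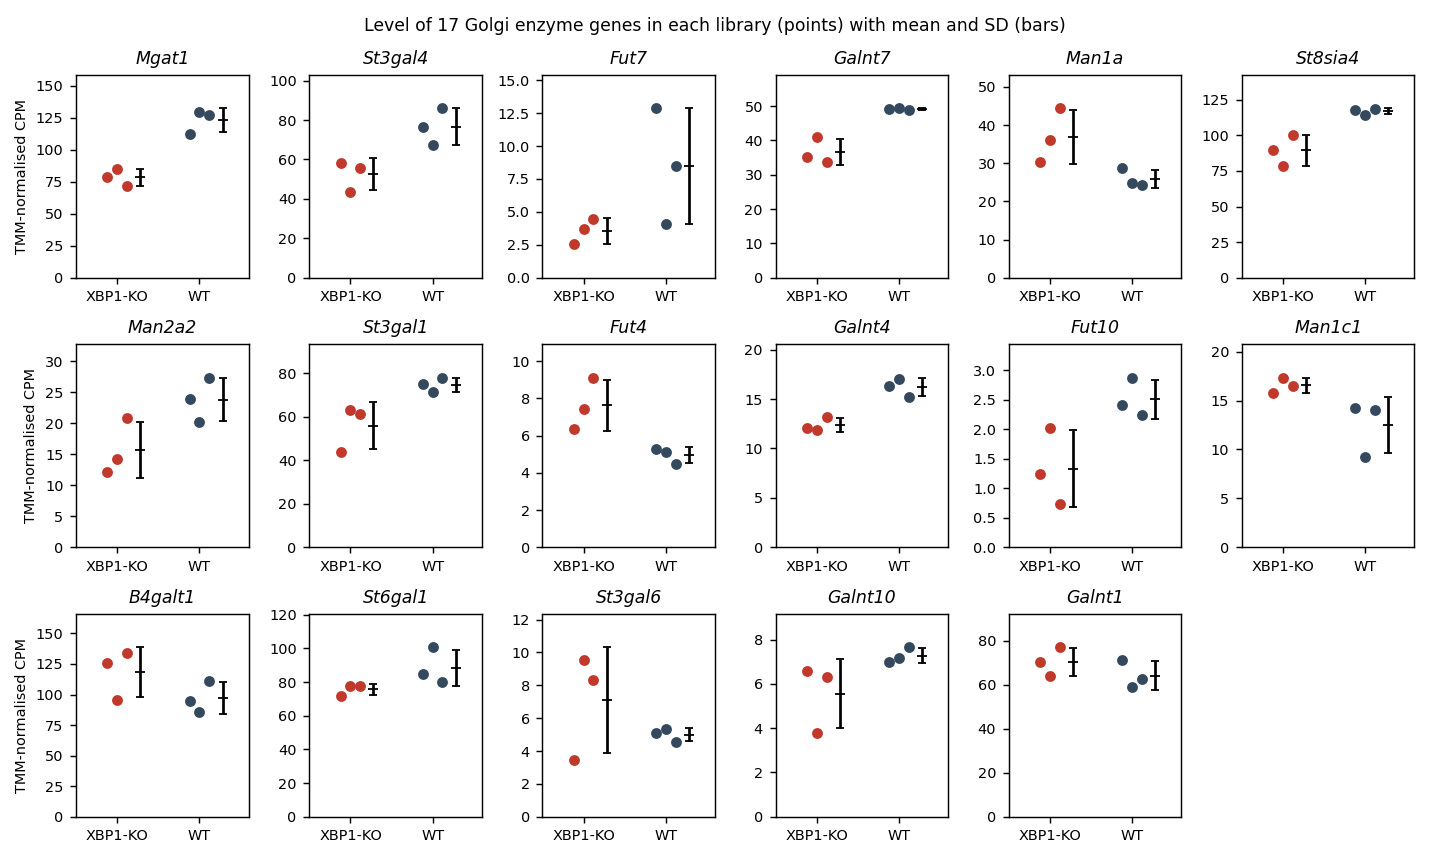
TMM-normalised CPM (vertical axis, from 0) of 17 genes in each XBP1-KO library (red, left) and each WT library (dark, right), with the mean and SD of 3 libraries beside them, ordered by unadjusted p. The XBP1-KO points of Mgat1 lie between 72.1 and 85.2 CPM and its WT points between 113 and 130 CPM, while the points of B4galt1, St3gal6 and Galnt1 overlap.

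The galactosyltransferases showed no call. B4galt1, the main enzyme that adds galactose to N-acetylglucosamine, had 125, 95.5 and 134 CPM in XBP1-KO libraries a, b and c, against 94.6, 85.3 and 111 CPM in WT libraries a, b and c. XBP1-KO b lay below WT c, so the groups overlapped, and the log2 fold change was 0.29 (SE 0.15, adjusted p = 0.468, edgeR quasi-likelihood). B4galt3, which transfers galactose as well, had 53.7 ± 11.8 CPM in XBP1-KO and 62.2 ± 8.69 CPM in WT (SD, n = 3 each). B4galt5 and B4galt6, which make lactosylceramide, had log2 fold changes of -0.07 and 0.22, and B4galt4 and B4galt7, which acts on the linker of proteoglycans, -0.07 and -0.01. All 6 B4galt genes overlapped between the genotypes.

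The 5 B3galt genes were low, with means of 0.755 to 3.41 CPM in XBP1-KO and 0.424 to 5.58 CPM in WT. B3galt5 and B3galt6 lay higher without overlap, B3galt5 at 1.21, 1.59 and 1.15 CPM in XBP1-KO libraries and 0.141, 1.10 and 0.0334 CPM in WT libraries (adjusted p = 0.465, edgeR quasi-likelihood). B3galt2, the one with the highest mean CPM, overlapped at 6.08, 2.40 and 1.76 CPM in XBP1-KO libraries and 6.82, 3.08 and 6.85 CPM in WT libraries. The gene B3galt4 makes the gangliosides GM1 and GD1b and also overlapped, with a log2 fold change of -0.15.

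Of the 7 B3gnt symbols, the highest was the row named B3gnt1, with 82.6, 80.2 and 82.7 CPM in XBP1-KO libraries and 81.9, 87.2 and 93.9 CPM in WT libraries, which overlapped. RefSeq lists that symbol as an older name of B3gnt2 and of B4gat1. Since B3gnt2 has a row of its own, the row is taken here as B4gat1, which encodes a glucuronyltransferase that acts on dystroglycan and not a poly-lactosamine enzyme. B3gnt2, the main enzyme that extends poly-lactosamine, had 29.5 ± 4.47 CPM in XBP1-KO and 30.7 ± 4.30 CPM in WT (SD, n = 3 each). The annotated exons of both genes overlap other gene models on the same strand, so how the reads were assigned could matter for these 2 rows. B3gnt3, B3gnt7, B3gnt8 and B3gnt9-ps had log2 fold changes of 0.05 to 0.78 and no adjusted p under 0.05.

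The sialyltransferases with the highest levels lay lower in XBP1-KO, though none was called. St3gal4, which caps type 2 chains with alpha-2,3 sialic acid, had 58.5, 43.7 and 55.9 CPM in XBP1-KO libraries a, b and c, against 76.6, 67.5 and 85.9 CPM in WT libraries a, b and c. The groups did not overlap, and the log2 fold change was -0.54 (SE 0.15; adjusted p = 0.132 by edgeR quasi-likelihood and 0.0488 by DESeq2). St3gal1, which sialylates core 1 O-glycans, had 43.7, 63.2 and 61.1 CPM in XBP1-KO libraries and 75.1, 71.5 and 77.7 CPM in WT libraries, again without overlap, with a log2 fold change of -0.42 (SE 0.15, adjusted p = 0.265, edgeR quasi-likelihood). XBP1-KO a was the lowest of the 6 for St3gal1 and XBP1-KO b for St3gal4.

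St6gal1, which makes the alpha-2,6 sialic acid bound by CD22, had 71.9, 77.4 and 77.7 CPM in XBP1-KO libraries and 84.6, 101 and 80.1 CPM in WT libraries. The groups did not overlap but lay close, at XBP1-KO c and WT c, and the log2 fold change was -0.22 (SE 0.13, adjusted p = 0.512, edgeR quasi-likelihood). St3gal6, which acts on type 2 chains like St3gal4, had 3.44, 9.51 and 8.31 CPM in XBP1-KO libraries and 5.09, 5.34 and 4.58 CPM in WT libraries, so XBP1-KO a lay below and the others above all WT values. Its log2 fold change of 0.51 (SE 0.33, adjusted p = 0.566, edgeR quasi-likelihood) did not pass, and 36.3% of its annotated exon bases lie opposite exons of Dcbld2, whose reads cannot be told apart without strand. St3gal2, St3gal3 and St3gal5, the GM3 synthase gene, overlapped, with log2 fold changes of -0.29, 0.06 and -0.16.

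St8sia4, the polysialyltransferase gene, had 2445, 2329 and 3296 counts in XBP1-KO libraries a, b and c, against 3337, 3235 and 3539 counts in WT libraries a, b and c. The means were 89.4 ± 10.7 CPM in XBP1-KO and 117 ± 2.05 CPM in WT (SD, n = 3 each), the groups did not overlap in CPM, and the log2 fold change was -0.39 (SE 0.13, adjusted p = 0.215, edgeR quasi-likelihood). Per kilobase, St8sia4 made up 98.2% ± 0.532 of the summed level of St8sia2 and St8sia4 in XBP1-KO and 99.4% ± 0.507 in WT (SD, n = 3 each). St8sia1, the GD3 synthase gene, had 12.9 ± 2.44 CPM in XBP1-KO and 15.3 ± 4.26 CPM in WT, and St8sia6 18.6 ± 7.02 CPM in XBP1-KO and 19.2 ± 3.79 CPM in WT, both with overlap. St8sia2 and St8sia3 had means under 1 CPM in both groups.

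The 12 Galnt genes, which start O-glycans, divided evenly, with 6 lower and 6 higher. Galnt1 had 70.3, 64.0 and 77.0 CPM in XBP1-KO libraries a, b and c, against 71.3, 58.8 and 62.4 CPM in WT libraries a, b and c, with overlap and a log2 fold change of 0.13 (SE 0.14). Galnt7, which acts on peptides that already carry GalNAc, had 35.3, 41.0 and 33.7 CPM in XBP1-KO libraries and 49.0, 49.3 and 48.9 CPM in WT libraries. The groups did not overlap, the WT values were within 1 CPM of each other, and the log2 fold change of -0.42 (SE 0.14, adjusted p = 0.207, edgeR quasi-likelihood) did not pass.

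Galnt4 was lower without overlap, with 12.1, 11.9 and 13.2 CPM in XBP1-KO libraries and 16.4, 17.1 and 15.2 CPM in WT libraries (adjusted p = 0.374, edgeR quasi-likelihood). Galnt10 had 6.59, 3.78 and 6.31 CPM in XBP1-KO libraries and 6.99, 7.18 and 7.65 CPM in WT libraries, without overlap (adjusted p = 0.574, edgeR quasi-likelihood). Galnt9 varied widely within each genotype, with 28.9, 12.7 and 22.7 CPM in XBP1-KO libraries and 46.7, 22.4 and 66.5 CPM in WT libraries. XBP1-KO a and c lay above WT b, and libraries b were lowest in both genotypes. Galnt2, Galnt6 and the remaining Galnt3, Galnt11, Galnt12, Galnt13 and Galnt14 overlapped, with log2 fold changes between -0.28 and 1.07. For Galnt2, 93.7% of its annotated exon bases are shared with another gene model on the same strand.

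The fucosyltransferases that build Lewis structures lay on both sides of 0, and none was called. Fut7, which makes the sialyl Lewis x ligand of selectins, had 2.53, 3.68 and 4.49 CPM in XBP1-KO libraries a, b and c, against 12.9, 4.11 and 8.48 CPM in WT libraries a, b and c. WT b lay between XBP1-KO b and c, so the groups overlapped. The log2 fold change was -1.25 (SE 0.39; adjusted p = 0.184 by edgeR quasi-likelihood and 0.0290 by DESeq2). Without WT a it was -0.82. Fut4, which also adds alpha-1,3 fucose, had 6.37, 7.42 and 9.10 CPM in XBP1-KO libraries and 5.26, 5.13 and 4.48 CPM in WT libraries. Every XBP1-KO value lay above every WT value, with a log2 fold change of 0.62 (SE 0.24, adjusted p = 0.299, edgeR quasi-likelihood). Per kilobase, Fut4 made up 11.1% to 13.5% of the summed level of the 6 Fut genes in XBP1-KO libraries and 6.35% to 7.60% in WT libraries. Neutrophil and lymphocyte genes, given above, lay higher in XBP1-KO as well, and their part in the level of Fut4 was not tested.

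Fut8, which adds the core fucose of N-glycans, overlapped at 20.6 ± 1.94 CPM in XBP1-KO and 22.9 ± 1.43 CPM in WT (SD, n = 3 each). Fut10 had 1.24, 2.02 and 0.728 CPM in XBP1-KO libraries and 2.40, 2.87 and 2.24 CPM in WT libraries, without overlap (adjusted p = 0.387, edgeR quasi-likelihood). Fut11 and Fut2 overlapped, with log2 fold changes of -0.13 and 0.79.

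**Figure D3:**
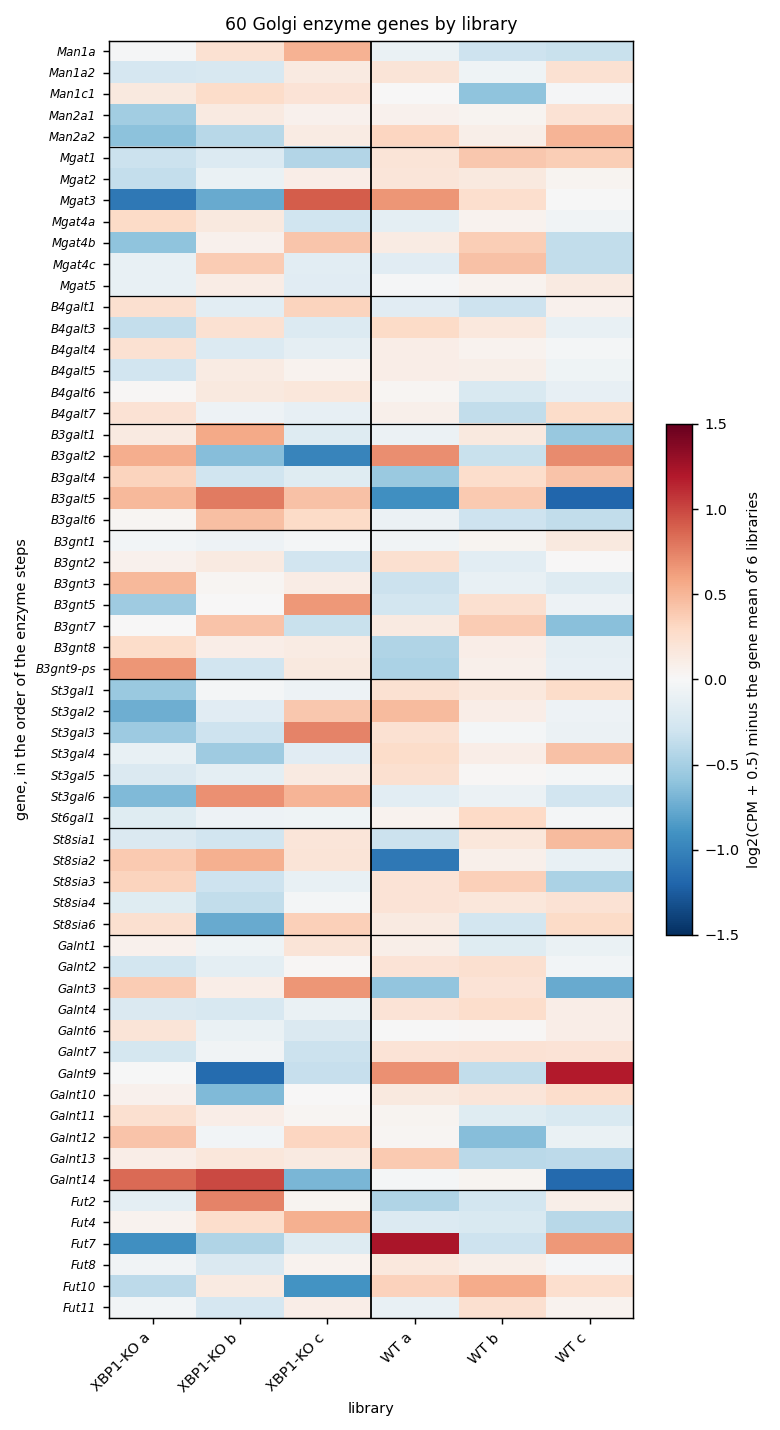
Log2(CPM + 0.5) of each of the 60 genes minus its mean over 6 libraries (colour), with XBP1-KO libraries left and WT libraries right and rows in blocks by enzyme family. The row of Mgat1 is below its mean in the 3 XBP1-KO libraries and above it in the 3 WT libraries, while rows such as Mgat3, Galnt9 and Galnt14 vary within a genotype.

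Levels within a family spanned a wide range on the scale of CPM per kilobase of transcript. In XBP1-KO libraries the highest member was the B3gnt1 row at 40.3, followed by B4galt1 at 29.7, B4galt3 at 26.9, St3gal4 at 25.1 and Mgat1 at 25.0. In WT libraries the order was the B3gnt1 row at 43.2, Mgat1 at 39.1, St3gal4 at 36.6, B4galt3 at 31.1 and B4galt1 at 24.4. Mgat1 stood at 25.0 ± 2.09 in XBP1-KO and B4galt1 at 29.7 ± 5.07 (SD, n = 3 each), and these 2 levels did not differ beyond their spread. At the low end, St8sia3 had 0.0339 in XBP1-KO and 0.0385 in WT, and Mgat5 0.211 in XBP1-KO and 0.233 in WT.

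**Figure D4:**
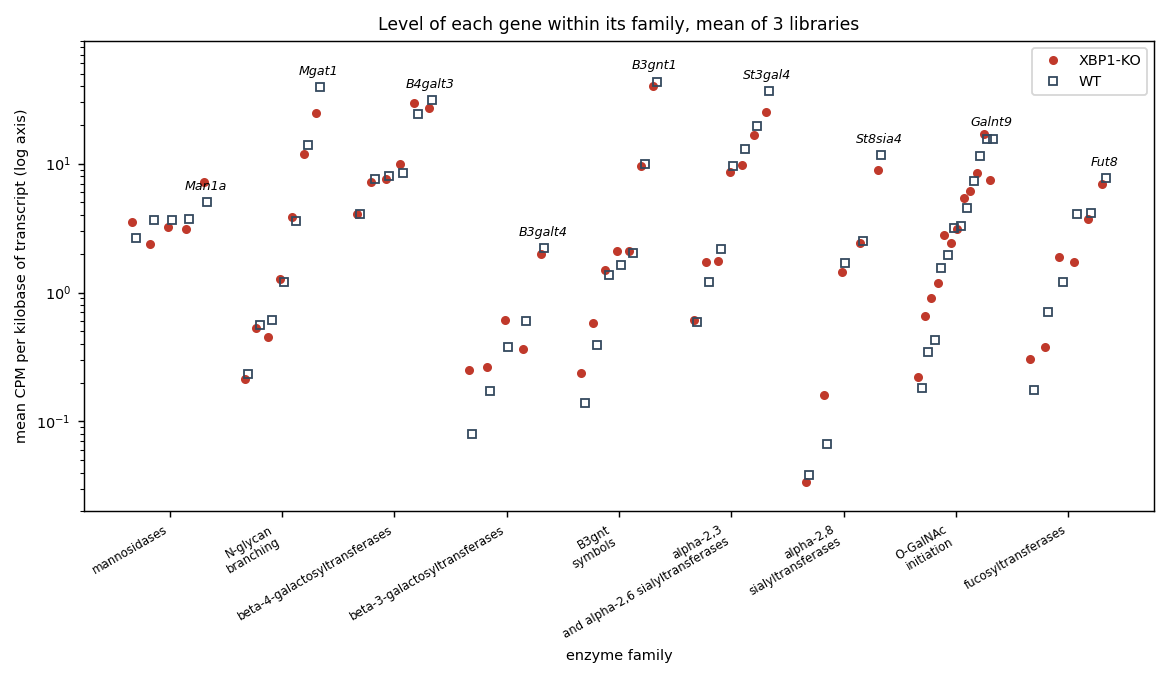
Mean CPM per kilobase of transcript (vertical, log axis) of each gene in XBP1-KO (red circles) and WT (open squares), by enzyme family and sorted by the WT level, with the highest WT gene of each family named. Mgat1 stands at 25.0 in XBP1-KO and 39.1 in WT, and the mannosidases all lie between 2.40 and 7.18 in both groups.

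The supply of sugar donors was not measured. RNA levels were compared for 24 genes of sugar nucleotide synthesis. Of these 15 lay lower, 1 fell and none rose, with a median log2 fold change of -0.04 beside 0.057 over all genes. At an unadjusted p under 0.05 by edgeR, 6 were lower and 0 higher. The gene that fell was Gfpt1, the first and rate-limiting enzyme of the hexosamine pathway, known from other studies as a target of XBP1. It had 30.7, 32.7 and 38.8 CPM in XBP1-KO libraries a, b and c, against 48.0, 69.5 and 66.3 CPM in WT libraries a, b and c, so the groups did not overlap. The log2 fold change was -0.85 (SE 0.17, adjusted p = 0.0498, edgeR quasi-likelihood). The call of Gfpt1 held with DESeq2 (adjusted p = 0.00119), with no filter (0.00701), with the CPM filter (0.0462) and without WT a (0.0305), the last 3 in edgeR's test, and ended without each of the other 5 libraries, with adjusted p-values between 0.0596 (XBP1-KO b left out) and 0.263 (WT c left out), in the 4 libraries (0.130), with upper quartile scaling (0.0774), with library size alone (0.176) and with the deposited CPM in limma (0.141 and 0.151). Other genes of the list without overlap were lower but not called by edgeR, among them Gmppb, which makes GDP-mannose, with 15.7 ± 3.10 CPM in XBP1-KO and 29.1 ± 4.47 CPM in WT (SD, n = 3 each). Pgm3, a later step of the hexosamine pathway, had 20.2 ± 1.21 CPM in XBP1-KO and 30.8 ± 4.40 CPM in WT. DESeq2 called Gfpt1, Gmppb and Pgm3 in this list (adjusted p = 0.00119, 0.00288 and 0.0317).

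Of 13 Slc35 genes listed for sugar nucleotide transport into the Golgi, 10 lay lower and none was called by edgeR or DESeq2. At an unadjusted p under 0.05 by edgeR, 3 were lower and 0 higher, and the median was -0.20. The list is broader than its name, as Slc35b2 and Slc35b3 carry the sulfate donor PAPS and Slc35b1 carries ATP. Not all 13 are established transporters of a sugar nucleotide. Slc35c1, the GDP-fucose transporter, had 34.5 ± 4.34 CPM in XBP1-KO and 49.4 ± 4.26 CPM in WT (SD, n = 3 each), with the smallest p of the list (adjusted p = 0.145, edgeR quasi-likelihood). Of 22 tested genes listed as Golgi glycosyltransferases with other symbols, 17 lay higher, 5 lower and none was called by edgeR or DESeq2. At an unadjusted p under 0.05 by edgeR, 1 was lower and 1 higher, and the median was 0.15. Not all 22 encode a catalytic transferase, as C1galt1c1 and Gnptg are among them. The smallest p in that list was that of Gcnt3, at 1.37 ± 0.407 CPM in XBP1-KO and 0.480 ± 0.419 CPM in WT (adjusted p = 0.344, edgeR quasi-likelihood).

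Of 20 genes listed for Golgi tethering and enzyme retention, 14 lay lower and none was called by edgeR, with 5 lower and 0 higher at an unadjusted p under 0.05 and a median of -0.28. The list is broader than its name, and Tmem165 and Atp6v0a2 in it are not tethers. DESeq2 called Uso1, a tether of vesicles at the Golgi, lower (adjusted p = 0.0465). Gosr2, a SNARE of ER-to-Golgi and Golgi traffic, had 124 ± 19.8 CPM in XBP1-KO and 175 ± 8.03 CPM in WT (SD, n = 3 each, adjusted p = 0.128, edgeR quasi-likelihood). Among the 14 alternatives it was called only without XBP1-KO b (log2 fold change -0.64, adjusted p = 0.0460, edgeR), with an adjusted p of 0.0538 by DESeq2. Of 8 genes listed for N-glycan trimming before the Golgi, 7 lay lower and none was called by edgeR. The list includes Manea, whose enzyme acts in the Golgi itself. At an unadjusted p under 0.05 by edgeR, 3 were lower and 0 higher, and the median was -0.36. DESeq2 called Ganab and Edem1 lower (adjusted p = 0.0187 and 0.0263), and edgeR called Ganab with no filter (0.0468). Ganab, the catalytic subunit of glucosidase II, had 78.0 ± 9.53 CPM in XBP1-KO and 114 ± 6.09 CPM in WT (adjusted p = 0.0890, edgeR quasi-likelihood). Beside the counts of all these pathway lists, 43.9% of all genes tested lay lower. At an unadjusted p under 0.05 by edgeR, 8.26% of all genes were lower and 4.59% higher. Among all genes with a mean of 5 CPM or more these shares were 52.3%, 12.6% and 4.16%, with a median of -0.017. The counts describe the lists, and no list was tested as a set.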

How the data were processed

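RNA-seq libraries of sorted dendritic cells, 3 XBP1-KO and 3 WT, were compared. Raw counts, whole numbers per gene symbol, were taken as the authors deposited them. The submitters' processing notes name RSEM, edgeR and the build mm9, with no role or version. RSEM estimates need not be whole, and no source used here gives the rounding, the aligner, the annotation or the strand setting. The deposited CPM table holds 13946 genes and equalled count over library total within 5.1e-11. Columns name the genotype without a replicate number, so libraries are called a, b and c in column order, which pairs nothing. No column was left out. Replicate libraries differed beyond sampling noise (chi-square per degree of freedom of 22.5 or more).

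Counts were tested in R 4.3.3 with edgeR 4.0.16 (filterByExpr defaults, 15958 genes, TMM factors, robust quasi-likelihood F test, two-sided, Benjamini-Hochberg adjusted over all genes tested). A gene was called under 0.05. SE is the log2 fold change over the square root of F. The common biological coefficient of variation was 0.25. Counts of this comparison were also simulated, with 15540 genes tested. Of 100 genes changed 2-fold 77% were recovered, and of 100 changed 4-fold 100%, with 14 false calls. No change under 2-fold was simulated, and recovery was not split by expression level. These shares therefore do not give the chance of recovering smaller changes or changes of members with low counts. Alternatives were DESeq2 1.42.0, other scalings and filters, the deposited CPM on log2(value + 1) and log2(value + 0.1) in limma 3.58.1, each library left out, and the 4 libraries without XBP1-KO b and WT b. Fold changes in limma are on that log2 scale.

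Members, gene lists and alternatives were chosen with earlier results of these data known. Named were Xbp1, B4galt1, St3gal6, Galnt1 and Mgat1, members with an unadjusted p under 0.05, members without overlap at a mean of at least 5 CPM, the highest CPM of each family, and of each pathway list the called genes or the smallest p. Other members were named to account for them, and the cell type genes, Gmppb, Pgm3, Uso1 and Edem1 after their values were seen. List counts by settings other than library size alone were added after seeing the data. Lengths are of the longest GENCODE M21 (GRCm38) transcript paired with a RefSeq mRNA, and exon overlaps come from its basic annotation. Promoter windows are from RefSeq (GRCm38.p6), a build other than that of the counts.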

Additional observations from a re-analysis of the deposited data

How the results depend on the processing

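Member calls lower in XBP1-KO numbered 1 in edgeR's main test, 0 with upper quartile scaling, library size alone, both limma tests or the 4 libraries without XBP1-KO b and WT b, 3 with DESeq2 (Mgat1, Fut7 and St3gal4), and 0 to 1 with a library left out. Member calls higher in XBP1-KO numbered 0 in every setting run, where 1 to 8 members were higher at an unadjusted p under 0.05. The member median of -0.07 became -0.016 with upper quartile scaling, 0.007 with library size alone, -0.017 and -0.03 in limma with the larger and the smaller pseudocount, 0.018 in the 4 libraries, and -0.112 to -0.037 with a library left out. Its distance from the median of all genes, a measure that like the counts at an unadjusted p was added after seeing the data, was -0.127, and lay between -0.152 and -0.094 in every other setting except the 4 libraries, at -0.021. All genes called higher numbered 25, and 13 with library size alone, 108 with DESeq2, 61 without a filter, 15 and 14 in limma, 13 in the 4 libraries and 4 to 32 with a library left out. Genes called lower numbered 46, and 27 with upper quartile scaling, 12 with library size alone, 365 with DESeq2, 191 without a filter, 16 and 15 in limma, and 1 to 122 with a library left out. Xbp1 passed with DESeq2 (-0.90, adjusted p 0.00143), no filter (-0.91, 0.00731), the CPM filter (-0.88, 0.0464) and the 4 libraries (-0.999, 0.0496), and ran from -1.08 to -0.75 with a library left out, passing without WT b. The cause of these changes was not tested. The 25 other named genes kept their direction in all 14 alternatives. No paired analysis was possible because the columns carry no replicate number. With 3 libraries a group, 77% of genes given a 2-fold change in simulated counts of this comparison were recovered. Changes under 2-fold, such as that of Mgat1, were not simulated. The share therefore does not give the chance of recovering such changes or those of members with low counts.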
